A study of Trichosurus vulpecula with 116 samples.

Results

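The eye of Sandy, a male brushtail possum (Trichosurus vulpecula) pouch young of 22 days postpartum (dpp), was sequenced as 1 library, which is 1 of the 116 RNA-sequencing libraries of the series. It was taken by its label and compared with the other 12 tissues of the same animal, with the brain as the closest neural tissue. Apart from brain these were skin, muscle and heart, the lung and spleen, and the liver, kidney, bladder, stomach and both intestines, with 1 library each. All 13 libraries of Sandy came from tissue kept in RNAlater, with RNA extracted in TRIzol, and were made with the NEXTFLEX poly(A) strand-specific kit and sequenced as single-end reads on a HiSeq instrument. The labels give no genetic modification or treatment, and they do not say which parts of the eye were taken. Brains of 7 other pouch young of 10 to 62 dpp were made with the NEBNext kit and read with shorter reads on another instrument. They were used to show the range of brain values, in alternative comparisons and in a check for outlying libraries. With 1 animal and 1 library of each tissue there was no replicate and no test, so levels, ranks and counting error are given.

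Expression is given in CPM, the uniquely mapped reads on a gene for each 1000000 reads of the library, without division by gene length. CPM therefore compares a gene between tissues and not 1 gene with another. In the eye 17130171 reads fell on genes, the fewest of the 13 libraries, which ranged up to 32064469. These were 83.3% of the library total, against 81.1% in brain and 87.2 to 94.1% in the other tissues. Each read in the eye was worth 0.0486 CPM, and a gene without reads could have had up to 0.146 CPM, the level of 3 reads. Of the 23816 genes in the table, 17539 had a read in the eye and 14100 had at least 30. Intervals in the text are exact 95% intervals for counting error alone, which does not include differences between animals, dissections or library preparations.

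The vertebrate eye joins tissues of several origins. The lens forms from surface ectoderm, and its fibre cells fill with crystallins, soluble proteins that set the refractive index. The retina and its pigment epithelium form from the wall of the forebrain, and retinal progenitors give rise first to ganglion, horizontal, amacrine and cone cells and later to rods, bipolar cells and Müller glia. Marsupials are born with eyes at an early stage, and these processes continue in the pouch.

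A gene was counted as set apart in the eye when it had at least 30 reads there and lay at least 8-fold above the highest of the other 12 tissues, with each value raised to the CPM of 3 reads of its library. This held for 138 genes, 0.774% of the 17833 genes with at least 30 reads in any of the 13 tissues. Of the 138, 107 carry a gene symbol and 31 only a LOC number, for which the table used here gives no product name. By this count the eye followed skin with 253 genes, liver with 204 and brain with 198, while small intestine had 2. By the looser count of genes that had at least 30 reads in the eye and were highest there at any margin, it held 2288 genes (12.8%), fewer than brain and spleen only. With libraries scaled to their 75th percentile the count in the eye was 1341. Wherever genes of a list are counted as highest in the eye, the same minimum of 30 reads applies. The margin exceeded 64-fold in 52 of the 138 genes and 1000-fold in 18, and 10 genes had no read in any of the other 12 tissues. The next highest tissue was brain for 46 of the 138 genes, more than for any other tissue. It was also brain for 687 of the 2288 genes highest in the eye at any margin, so this was not particular to the 138.

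**Figure D1:**
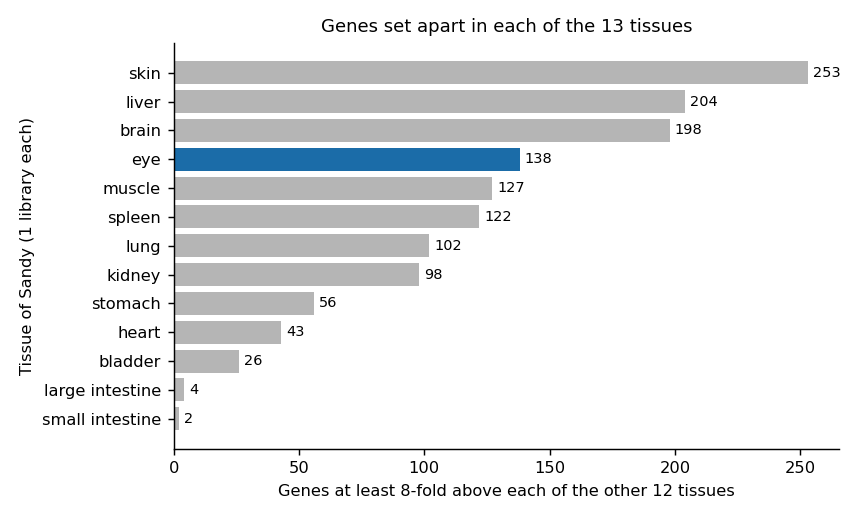
Number of genes at least 8-fold above each of the other 12 tissues (horizontal axis, genes with at least 30 reads) for each tissue of Sandy (vertical axis, 1 library each). The eye (blue) holds 138 genes, below skin with 253, liver with 204 and brain with 198, and small intestine holds the fewest with 2.

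Ranked over the same 17833 genes, the eye was most like brain (Spearman's rho 0.851), followed by heart (0.804) and muscle (0.784), and least like liver (0.636). These are descriptions across genes within 1 animal, and the genes are not independent. Genes that define the eye were checked first. Lists of genes known from the lens, retina, pigment epithelium and other parts of the eye held 175 genes found in the table, of which 55 were among the 138, beside 0.774% of all genes. None of the 57 genes found from lists of other tissues was among them. Over all 17833 genes the median difference between the eye and the highest other tissue was -1.27 on the log2 scale, and the medians of the lists are given beside that value.

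The crystallins of the lens were among the genes with the largest differences. Of 10 listed alpha-, beta- and gamma-crystallin genes found in the table, 9 were set apart in the eye, with a median excess of 10.81 on the log2 scale. *CRYAA*, the alpha-crystallin of the lens, on chromosome 2 from 378298862 to 378346158, had 234995 reads, more than any other gene in the eye. Its level was 11422 CPM in the eye and 0 to 2.43 CPM in the other 12 tissues (median 0.014), highest in spleen, a 4706-fold difference (interval 3640 to 6197). It stood far above every other tissue, and the brain had no read on it.

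The beta-crystallins followed the same pattern. *CRYBA1*, on chromosome 7 from 35350729 to 35361335, was at 5335 CPM in the eye against 1 read in brain and none in the other 11 tissues, a ratio of 160757 (interval 28852 to 6349630). *CRYBB3* was at 2095 CPM against 0 to 0.18 CPM (median 0.0174), highest in stomach, 11608-fold lower than the eye (interval 4974 to 35751). *CRYBA2* reached 2355 CPM against at most 0.266 CPM, in brain, a difference of 8869.7-fold (interval 4501 to 20546). The other tissues were thus close to 0 for these genes and did not overlap the eye. *CRYBA4* and *CRYBB1* were less exclusive, since small intestine had 8.71 and 2.82 CPM of them against 2984 and 4653 CPM in the eye. A liver of another pouch young, outside these comparisons, had 100.3 CPM of *CRYBA4*. *CRYBB2* was at 590.5 CPM in the eye, 1881-fold above the highest other tissue, muscle.

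Among the gamma-crystallins only *CRYGN* and *CRYGS* were found under these symbols. *CRYGN* was at 1447 CPM against 0.139 to 0.846 CPM in the other tissues (median 0.326). *CRYGS* was at 138 CPM, against 0 to 0.208 CPM (median 0.0355). Both lay well above all 12 tissues, by 1711-fold (interval 1129.6 to 2729.9) and 665-fold (interval 305 to 1812). The exception among the 10 was *CRYAB*, a small heat shock protein that muscle and heart also make. It was second in the eye, at 258 CPM, below heart at 399 CPM (1.55-fold higher than the eye, interval 1.5 to 1.6), and its reads may include some of the overlapping gene *C2H11orf52*.

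Together the 10 crystallins took 643503 reads, 3.76% of the reads on genes in the eye (exact binomial interval 3.75 to 3.77%). In the other 12 tissues they took at most 0.0439%, in heart, where 12508 of 12538 such reads fell on *CRYAB*. In brain the share was 0.00170%, from 415 reads. The longest row of neighbouring genes set apart in the eye was formed by 6 genes without a symbol on chromosome 4, between 293391963 and 293463053. These took a further 277613 reads, 1.62% of the total. The leading ones were *LOC118847826*, with 4076 CPM in the eye, and *LOC118847831*, with 3366 CPM. Neither had a read in any of the other 12 tissues, so the eye was at least 32469-fold and 26807-fold higher than 3 reads in any of them. What these 6 genes encode is not named in the sources used here, and uniquely mapped reads may undercount near-identical neighbours. The 6 genes and the 10 crystallins took 5.38% of the reads on genes.

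Of the 10 genes with the most reads in the eye, *CRYAA*, *CRYBA1* and *CRYBB1* were listed crystallins and *LOC118847826* and *LOC118847831* belonged to the row on chromosome 4. The others were the mitochondrial *COX1*, *ATP8* and *CYTB*, the translation elongation factor *EEF1A1* and *LOC118858377* on chromosome 7. *LOC118858377* was at 4029 CPM in the eye against at most 1.51 CPM, in kidney, a 2661-fold difference. The 10 genes together took 6.12% of the reads, the lowest share for a top 10 among the 13 tissues, which reached 28.4% in liver. Mitochondrial genes took 2.59% of the reads in the eye and 4.24 to 20.2% in the other tissues, so the eye was lowest by this measure.

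Other genes of the lens were also set apart. Of 9 genes found from the list of fibre cell membrane and cytoskeleton, 7 were set apart and the median excess was 8.12. *BFSP1* and *BFSP2*, the beaded filament proteins of fibre cells, were at 652 and 328 CPM against at most 0.585 and 0.134 CPM elsewhere, 1113-fold and 2448-fold higher. *LIM2*, a fibre membrane protein, was at 179 CPM, with 3 reads in brain as the highest other count (ratio 1796, interval 614 to 8713). The connexin *GJA3* was at 74.2 CPM against 0 to 22 CPM (median 0.509), with heart 3.38-fold lower than the eye. The further lens genes *LGSN*, *GRIFIN* and *LCTL* were 278, 60.5 and 14.2-fold above the next tissue, and *LCTL* overlaps *ZWILCH*.

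*DNASE2B*, the nuclease that degrades DNA in maturing lens fibres, had no reads in the eye, so its level was at most 0.146 CPM. Liver had 2.31 CPM of it, and the median of the other 12 tissues was 0. It was the only member of the lens lists without a read in the eye.

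**Figure D2:**
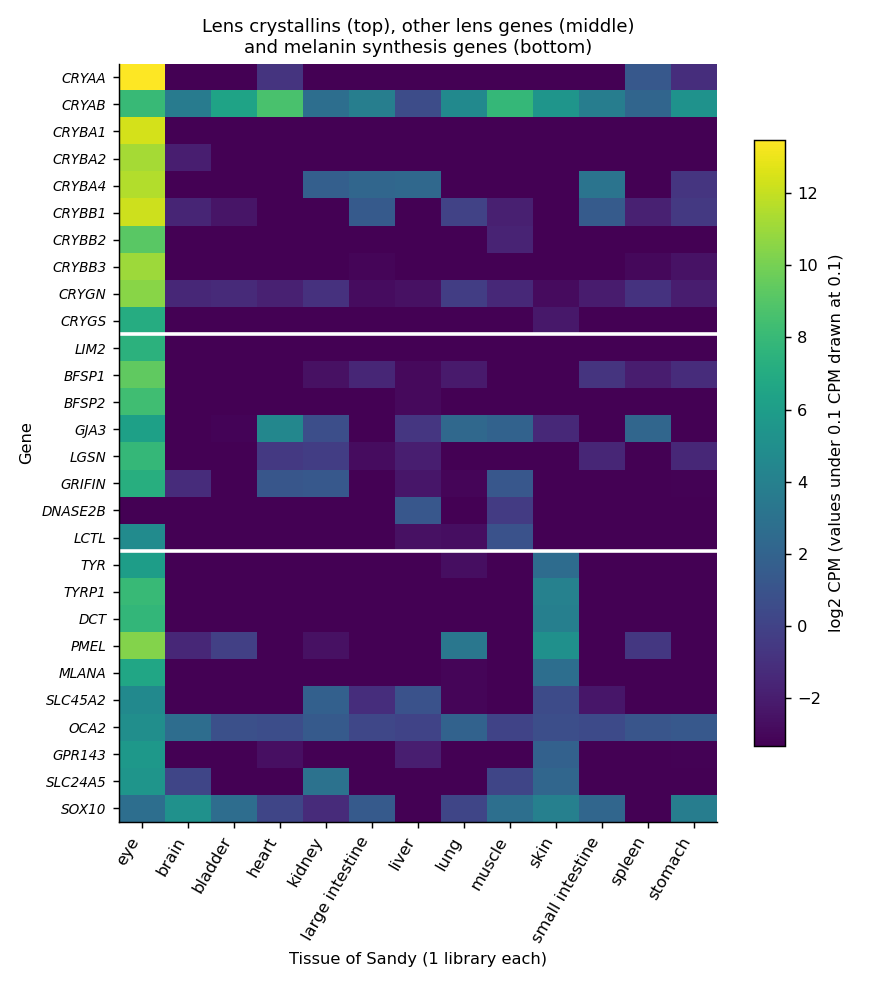
Level of the 10 crystallin genes (top), 8 other lens genes (middle) and 10 melanin synthesis genes (bottom) in the 13 tissues of Sandy, as log2 CPM on a colour scale, with 1 library a column. The eye column is brightest except for *CRYAB*, *DNASE2B* and *SOX10*, and skin carries the next level for most melanin genes.

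Regulators of the lens were less uniform, with 2 of 6 set apart. *FOXE3*, a transcription factor of the lens epithelium, was at 11.1 CPM (interval 9.69 to 12.6) with no read in any of the other 12 tissues, at least 88.3-fold higher than 3 reads there. *HSF4*, which acts in fibre differentiation, was at 8.55 CPM against 0 to 0.207 CPM (median 0.0174). *PROX1* and *SOX1* were highest in the eye by 2.26-fold (over heart) and 1.66-fold (over brain). For *SOX1* the other brains reached 24.1 CPM, above the 7.05 CPM of the eye. *PITX3* was at 16.3 CPM in the eye and 16.6 CPM in muscle, a ratio of 0.984 (interval 0.853 to 1.13), which counting error cannot separate. *MAF* was at 109 CPM, below large intestine and 2 other tissues. Of 3 enzymes that serve as crystallins in some species, *CRYM* was highest in the eye, at 130.1 CPM against 0.419 to 52 CPM (median 7.7), whereas *CRYZ* and *CRYL1* were below kidney and small intestine, with ranks of 7 and 12.

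Genes of retinal progenitors and the eye field, the region of the early forebrain that forms the eyes, were mostly highest in the eye. Of 10 genes, 9 were highest in the eye and 4 were set apart, with a median excess of 2.14. *RAX*, a homeobox gene needed for the eye field, was at 75 CPM (1542 reads) and had no read in any of the other 12 tissues, at least 597-fold below the eye. None of the 7 other brains had a read on it, at their lower depth. *SIX6* was at 41.9 CPM, against 1 read in brain and none elsewhere. *PAX6*, which acts in lens and retina alike, was at 496 CPM against 0 to 3.19 CPM (median 0), highest in brain, a 156-fold difference (interval 127 to 193). The 7 other brains ran from 0 to 56.1 CPM of it, so the eye was above all 8 brains, by a smaller factor.

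The rest of this list was shared with other tissues. *SIX3* was 7.06-fold above brain (interval 6.24 to 8), just under the limit of 8-fold. *LHX2* and *SOX2* were 2.76 and 2.24-fold above brain, and *HES1* and *CCND1*, genes of dividing progenitors, 2.23 and 2.37-fold above skin and lung. *SFRP2*, a secreted Wnt inhibitor, had rank 8 at 5.25 CPM, with 135 CPM in bladder.

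Neurogenic transcription factors, which mark progenitors as they leave the cell cycle, formed the list with the highest median outside the lens, 4.15, and 7 of 9 members were set apart. *ATOH7*, needed for ganglion cells, was at 21.4 CPM (interval 19.4 to 23.5), with no read in the other 12 tissues, at least 170.3-fold lower. The 7 other brains reached 12.7 CPM of it, so this margin refers to the tissues of Sandy. *NEUROD4* was at 56.7 CPM against 0 to 0.929 CPM, and *NEUROD1* at 125 against 0 to 5.71, each with brain as the next tissue. The brain of Sandy was 61 and 22-fold lower than the eye for these genes, but the 7 other brains reached 17.3 CPM of *NEUROD4* and 54.6 CPM of *NEUROD1*. *FOXN4*, which acts in amacrine and horizontal cell fate, was 16.3-fold above lung, and *INSM1* 9.71-fold above brain, with up to 12.7 and 19.7 CPM in the other brains against 83.4 and 71.2 CPM in the eye. *NEUROG2* was set apart within Sandy at 2.87 CPM, but not with a common floor of 1 CPM, and the brain of the 10 dpp young reached 8.03 CPM. *PTF1A* was 4.25-fold above stomach, and *OLIG2* was level with brain (ratio 0.935, interval 0.785 to 1.11).

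Genes of ganglion cells, the output neurons of the retina, were mostly higher in brain. None of 13 met the 8-fold rule, the median excess was -1.69, and in 9 brain was the highest tissue. Against brain alone, *ISL1* and *RBPMS* were more than 8-fold higher in the eye. *POU4F1* and *POU4F3* were slightly higher in the eye, at 25.9 and 5.59 CPM against 17.6 and 4.58 CPM in brain, and the interval of the second ratio (0.945 to 1.57) included equality. *POU4F2* was at 14 CPM in the eye and 31.9 CPM in brain, and those were the top 2 tissues. *ISL1* was highest in the eye at 35.4 CPM, 2.92-fold above stomach and 48.5-fold above brain. The axonal genes *GAP43*, *STMN2*, *NEFL* and *NEFM* all ranked second in the eye, 5.28, 4.53, 3.39 and 1.67-fold below brain.

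Markers of inhibitory interneurons were led by *PRDM13*, an amacrine cell regulator. It was at 16.2 CPM in the eye, against 3 reads in brain as the highest other count (ratio 163, interval 55.3 to 795). The other brains reached 2.27 CPM of it. *ONECUT1*, a horizontal cell factor, was 2.15-fold above brain, and its reads may include those of the overlapping *LOC118829658*. The remaining 9 of the 11 genes were higher in another tissue, among them *GAD1* and *GAD2*, which make GABA, with 13.5 and 22.3 CPM against 319.5 and 197 CPM in brain.

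Among 10 genes of bipolar cells, 3 were set apart, namely *TRPM1*, *LRIT3* and *GRM6*. These act together in the response of ON bipolar cells to light, and *TRPM1* is also made by pigment cells. *TRPM1* was at 211 CPM against 0.067 to 1.98 CPM (median 0.266), highest in skin. *LRIT3* was at 22 CPM and *GRM6* at 8.85 CPM, 90.0 and 36.2-fold above muscle, and *GRM6* overlaps *LOC118832742*. Their partner genes *NYX* and *GPR179* had 0 and 7 reads, and *VSX1*, a regulator of late cone bipolar cells, had 7 reads. *CABP5*, a calcium binding protein of bipolar cells, was 2.8-fold above brain from 44 reads, at 2.14 CPM against up to 1.65 CPM in the other brains. In all 5 of the 10 genes had at least 30 reads in the eye.

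Of the genes used as markers of Müller glia, only *RLBP1*, the retinaldehyde binding protein that pigment epithelium also makes, was highest in the eye. It was at 38.4 CPM against 0 to 0.196 CPM (median 0), 196-fold higher (interval 94.6 to 489). *GLUL*, *SLC1A3*, *AQP4*, *CLU* and *DKK3* had ranks of 3 to 10 in the eye, and *AQP4* was at 12.6 CPM against 53.2 CPM in brain.

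**Figure D3:**
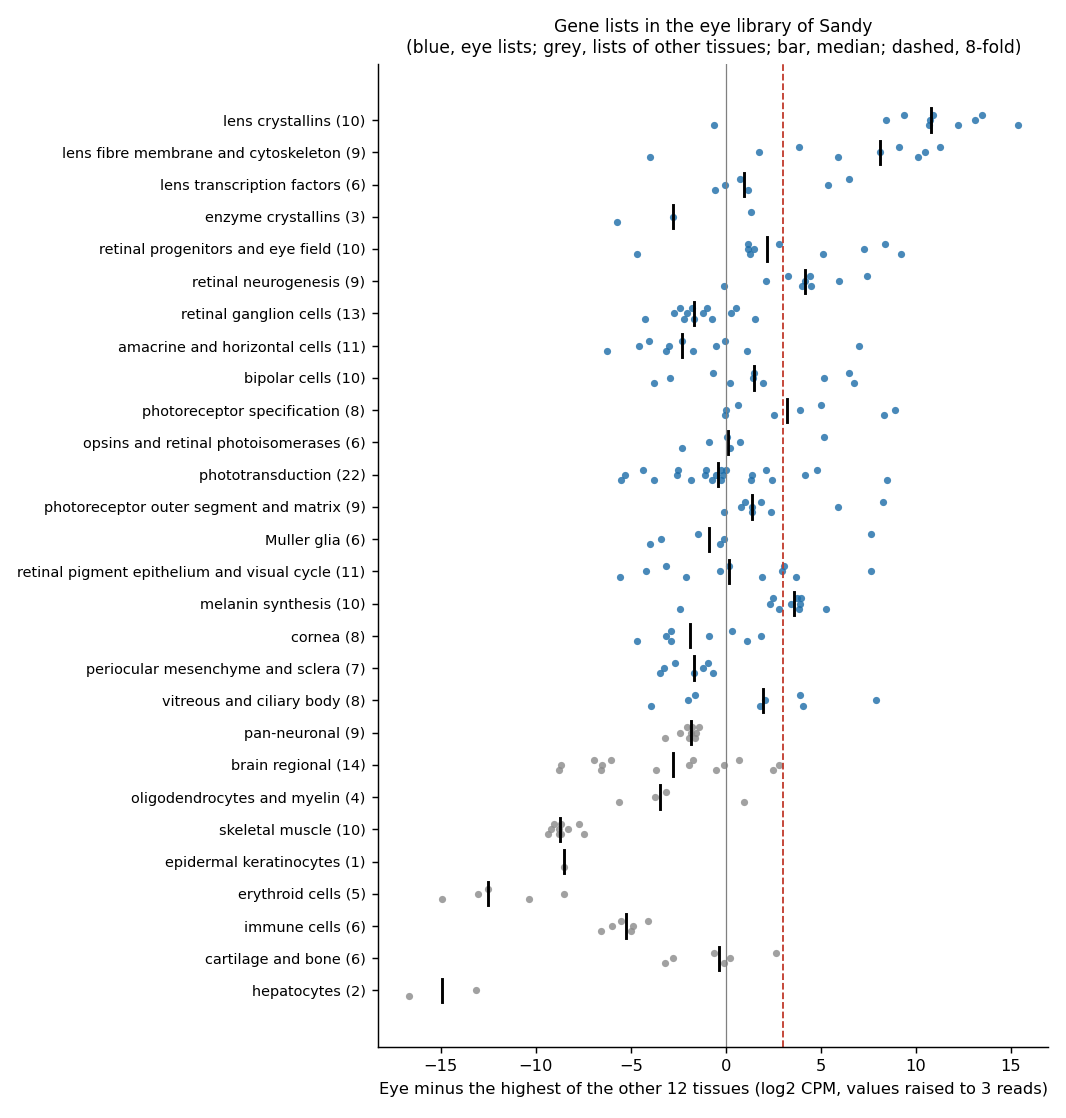
Difference between the eye and the highest of the other 12 tissues for each gene (points) of 19 eye lists (blue) and 9 lists of other tissues (grey), as log2 CPM with values raised to 3 reads of each library. The black bar is the list's median, the number of genes found is in brackets, and the dashed line marks 8-fold. The lists of lens crystallins, lens fibre genes, neurogenesis, melanin and photoreceptor specification have medians above the line, and the lists of muscle, red cell precursors and hepatocytes lie furthest to the left.

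Regulators of photoreceptor fate were clearly present. Of 8 genes, 7 were highest in the eye and 4 were set apart (median excess 3.23). *THRB*, a thyroid hormone receptor of cone precursors and 1 of the 7, was level with stomach, at 52.8 and 52.7 CPM, and dropped to second when libraries were scaled to their 75th percentile. *CRX*, the homeobox gene of photoreceptor precursors, on chromosome 2 from 37730470 to 37736473, was at 59.2 CPM (1218 reads). No read of *CRX* was found in the other 12 tissues or the 7 other brains, so the eye was at least 472-fold above 3 reads in any of the 12. *NR2E3*, which acts in rod precursors, was at 40.1 CPM against 0 to 0.0841 CPM, with 3 reads in kidney as the highest count. *NRL*, the rod determinant, was at 12 CPM, 31.7-fold above spleen (interval 16.5 to 70.3), and *RORB* at 90.5 CPM, 15.2-fold above brain and above the 15.4 CPM that the other brains reached.

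*OTX2*, which acts upstream of *CRX* and also in the midbrain, was at 293 CPM, 5.82-fold above brain (interval 5.5 to 6.16). *PRDM1* was 1.58-fold above small intestine. *RXRG*, a cone gene that other tissues use as well, was at 27.9 CPM in the eye and 29 CPM in liver, a difference within counting error (ratio 0.866 to 1.07).

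*OPN1SW*, the short-wavelength cone opsin, was not detected and had no read in any of the 13 tissues. At this depth it could have been present in the eye at up to 0.146 CPM. No gene was found under the symbols *OPN1LW*, *OPN1MW* or *RGR*. Non-visual opsins differed. *RRH*, the peropsin of the pigment epithelium, was set apart at 18.3 CPM against 0 to 0.504 CPM (median 0.311), 36.2-fold above bladder (interval 22.6 to 61.8). *OPN4*, the melanopsin of light-sensitive ganglion cells, was highest in the eye at 3.35 CPM (69 reads) but only 1.67-fold above skin (interval 1.16 to 2.41). *OPN3* had rank 3, below liver.

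Genes of the phototransduction cascade had few reads, with exceptions. Of 22 found, 18 had at least 3 reads and 10 at least 30 in the eye. Of the 10, 4 were highest there, and 3 of these were set apart (median excess of the list -0.39). With a common floor of 1 CPM only 1 was set apart, since *GNAT2* and *PDE6H* lost the call. *RCVRN*, the calcium sensor recoverin, led with 44.1 CPM (907 reads) against a single read in lung and none in the other 11 tissues (ratio 1146, interval 205 to 45322). *GNAT2*, the cone transducin, was at 5.35 CPM against 0 to 0.293 CPM (median 0.0287), 18.3-fold above spleen. *PDE6H*, the inhibitory subunit of the cone phosphodiesterase, was at 3.55 CPM (73 reads) with 1 read in skin and none elsewhere (ratio 102, interval 17.8 to 4096). *GNB3*, a beta subunit of cones and ON bipolar cells, was at 3.94 CPM, 2.47-fold above brain but below the 6.16 CPM that the other brains reached.

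Grouped by the cell type that uses them, a grouping made after the values were seen, 6 of 8 cone genes and 1 of 8 rod genes had at least 30 reads in the eye. Among those with at least 30 reads, 3 cone genes and 0 rod genes were highest in the eye. Below that minimum the cone gene *PDE6C* and the rod gene *PDE6G* also had their highest level there, at 0.437 and 0.68 CPM, with ratios to the next tissue of 2.61 (interval 0.786 to 9.92) and 6.83 (interval 1.91 to 37.1). The rod genes *GNAT1*, *CNGA1*, *GRK1*, *PDE6B*, *PDE6G*, *PDE6A* and *GNGT1* had 2, 2, 5, 7, 14, 19 and 22 reads. *SAG*, the rod arrestin, had 54 reads and was lower in the eye than in brain, at 2.62 against 3.78 CPM. On the cone side *PDE6C* and *CNGA3* had 9 and 1 reads, so low counts were not limited to rod genes. Reads are not divided by length here, so these counts do not rank the genes by abundance.

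Structural genes of photoreceptors were more often highest in the eye. Of 9 genes of the outer segment and the matrix around it, 8 were highest in the eye and 2 were set apart (median excess 1.39), and 8 were at least 8-fold above brain. *RBP3*, the retinoid carrier of the matrix, was at 41.4 CPM against 0 to 0.133 CPM (median 0), highest in brain with 4 reads, a 312-fold difference (interval 121 to 1146). *IMPG1*, a proteoglycan of the same matrix, was 59.4-fold above heart, and *IMPG2* 5.15-fold above liver, with 27.5 CPM in the eye and up to 8.43 CPM in the other brains. *ABCA4*, a retinoid transporter, *RP1*, of the axoneme, *AIPL1*, a chaperone of phosphodiesterase, and the disc protein *ROM1* were 2.02, 2.62, 1.73 and 2.59-fold above the next tissue. *PRPH2*, the disc rim protein, was at 2.72 CPM from 56 reads, 3.57-fold above brain (interval 2.16 to 6.07). *CDHR1*, a cadherin of the outer segment, was second to large intestine.

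**Figure D4:**
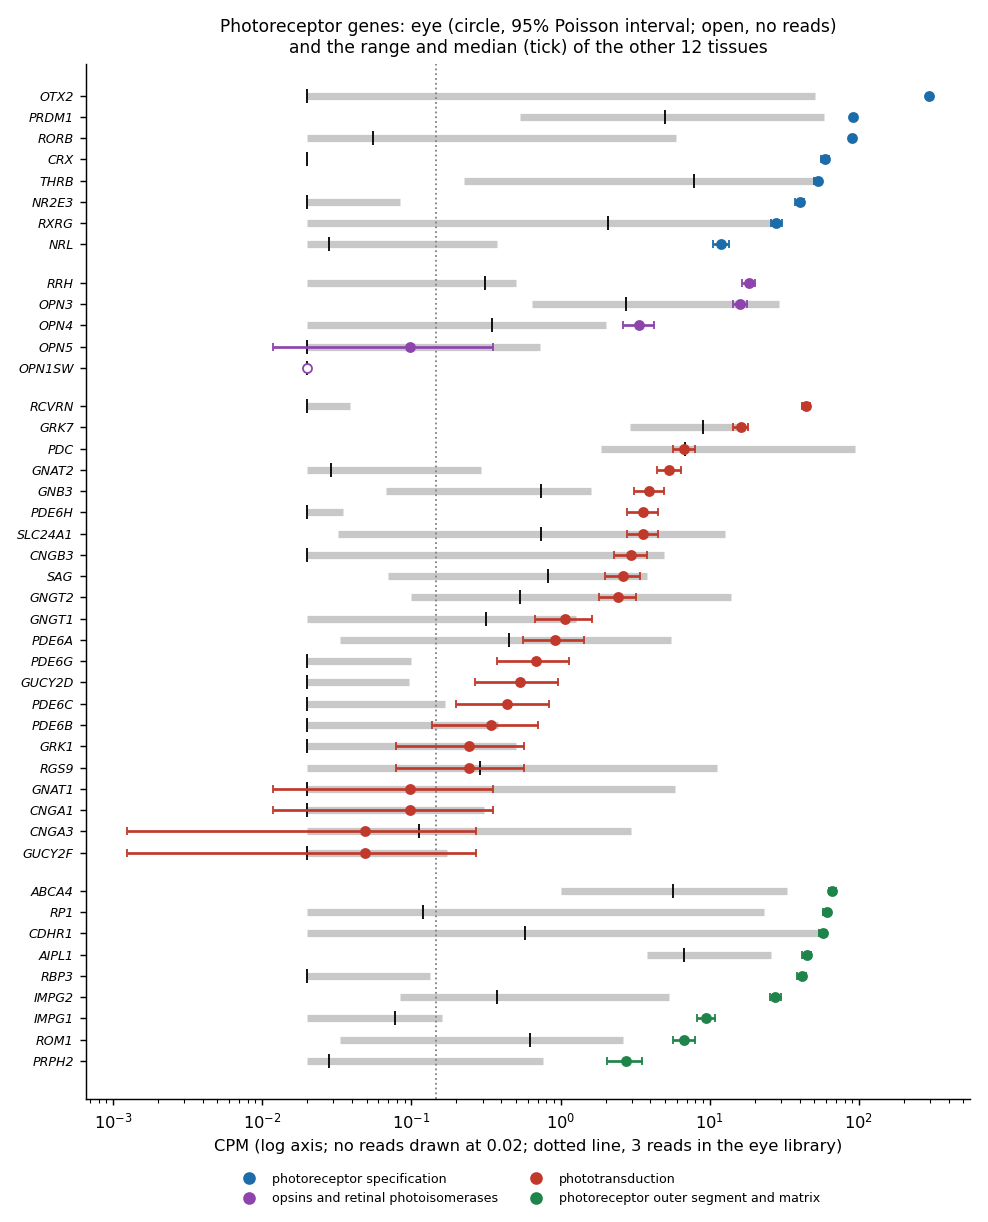
Level in the eye (circles, with 95% Poisson intervals of the reads) of photoreceptor genes in 4 lists, in CPM on a log axis, beside the range (grey bar) and median (tick) of the other 12 tissues. An open circle has no reads in the eye, and values without reads are drawn at 0.02 CPM. Regulators such as *CRX* and structural genes such as *RBP3* lie right of the other tissues, while *OPN1SW* has no reads and the rod genes *GNAT1* and *CNGA1* lie below the dotted line of 3 reads.

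Genes of the retinal pigment epithelium and the visual cycle, which returns retinal to its light-sensitive form, were highest in the eye in 6 of 11 cases, and 3 were set apart, *RLBP1* (already given), *KCNJ13* and *BEST1*. With a common floor of 1 CPM *KCNJ13* and *BEST1* lost the call. The retinol dehydrogenase *RDH10*, also among the 6, was 1.13-fold above small intestine, overlaps *RPL7* and was no longer highest with scaling to the 75th percentile. *RPE65*, the isomerase of the cycle, was at 5.15 CPM (106 reads) against 0 to 0.67 CPM (median 0.182), 7.69-fold above spleen (interval 4.53 to 13.9), and so just missed the 8-fold rule. *KCNJ13*, a potassium channel of this epithelium within the span of *GIGYF2*, was 12.7-fold above kidney, and *BEST1* 8.34-fold above lung from 33 reads (interval 3.24 to 27.4). *STRA6*, the receptor for retinol binding protein, was 3.8-fold above kidney. *LRAT*, the enzyme that supplies the substrate of *RPE65*, had rank 11 in the eye with 24 reads. *TTR*, a carrier of thyroxine and of retinol binding protein, was at 256 CPM, below liver at 4674 CPM and 1 other tissue.

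Genes of melanin synthesis, except *SOX10*, were higher in the eye than in skin. Of 10 genes, 9 were highest in the eye and 6 were set apart, and the median excess of 3.60 lay above the 8-fold line. *PMEL*, the scaffold protein of melanosomes, was at 1333 CPM against 0.0293 to 34.1 CPM (median 0.12), 39.1-fold above skin (interval 36.6 to 41.7). *TYR*, the rate-limiting enzyme, was at 66.3 CPM, *TYRP1* at 253 and *DCT* at 219.7, and skin had 6.14, 16.6 and 15.1 CPM of them. Skin was thus the next tissue for these 3 genes, 10.8, 15.2 and 14.6-fold lower, and the median of the other 12 tissues was 0 for each. *MLANA* and *GPR143* were 14.8 and 13.6-fold above skin, and *OCA2*, *SLC24A5* and *SLC45A2* 5.08, 5.49 and 7.02-fold above brain, kidney and kidney, of which *SLC24A5* overlaps *MYEF2*. Of *OCA2* the other brains reached 14.2 CPM, against 32.2 CPM in the eye.

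The exception in this list was *SOX10*, a factor of neural crest derived melanocytes and glia that pigment epithelium lacks. It was at 6.8 CPM and had rank 5 in the eye, against 36 CPM in brain and a median of 3.69 CPM. Pigment epithelium and melanocytes share most melanin genes, and in bulk tissue the number of cells of a type cannot be told apart from the RNA each cell holds.

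In the list of vitreous and ciliary body genes, 5 of 8 were highest in the eye and 3 were set apart. *OPTC*, the small proteoglycan opticin of the vitreous, was at 29.8 CPM with 3 reads in brain as the highest other count (ratio 299, interval 102 to 1455). The fibrillar collagen *COL2A1* was at 234 CPM against 0 to 56.3 CPM (median 7.46), 4.16-fold above large intestine. *COL9A1*, *COL9A2* and *COL9A3*, which coat its fibrils, were 14.7, 16.7 and 3.52-fold above the next tissue. These collagens also mark cartilage, and of the defining cartilage gene *ACAN* there were 51 reads in the eye, 2.48 CPM, against 16.9 CPM in bladder. *MATN1*, another cartilage gene, had 18 reads in the eye and at most 4 in the other tissues, and *COL10A1* and *MATN3* had none in the eye. The part of cartilage in the collagen levels was not tested.

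Connective tissue of the eye wall did not stand out. Of 8 cornea genes found, 3 were highest in the eye and none was set apart, and of 7 genes of periocular mesenchyme and sclera none was highest. *COL8A2*, a collagen of Descemet's membrane, was at 47.6 CPM, 3.57-fold above skin. *KERA*, the keratocyte proteoglycan, was 2.17-fold above muscle, and *KRT3*, a corneal keratin, was at 17.2 CPM against 14 CPM in skin. *COL1A1* and *COL1A2* had rank 7, 11.2 and 9.51-fold below bladder. *LUM*, a corneal proteoglycan, had rank 6, and the regulators *FOXC1*, *FOXC2* and *LMX1B* had ranks of 2 to 5.

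Genes of muscle, blood cells, epidermis and liver were far below their levels in the tissues rich in them. The 10 skeletal muscle genes summed to 94.2 CPM, against 3.65 to 38493 CPM in the other 12 tissues (median 90.6), and all had at least 3 reads in the eye. *TTN* had the most reads of them, 804, and *ACTA1* was at 12.7 CPM against 8395 CPM in muscle. Red cell precursor genes summed to 5.25 CPM against 10645 CPM in spleen, and *HEMGN* and *KLF1* had no reads in the eye. The 6 immune genes summed to 12.5 CPM, the lowest of the 13 tissues, with *CSF1R* and *C1QA* at 104 reads each as those with the most reads. Only *DSG1* was found of the keratinocyte list, at 13.3 CPM against 4894 CPM in skin. The 2 hepatocyte genes, *APOA1* and *FGB*, had 10 and 23 reads in the eye and summed to 1.6 CPM. The 6 cartilage and bone genes summed to 4.33 CPM in the eye, rank 6 of 13, against 0.838 to 22.6 CPM in the other 12 tissues (median 3.34).

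Compared with the brain of the same animal, 1120 genes were at least 8-fold higher in the eye, 7.55% of the 14843 genes with at least 30 reads in either, and 471 were at least 8-fold higher in brain, 3.17%. Over all 17833 genes the eye exceeded brain by a median of 0.51 on the log2 scale, and with libraries scaled to their 75th percentile that difference fell by 0.25. Of the 1120, 821 had a still higher level in another tissue of Sandy and 299 were highest in the eye. The same 1120 included 1004 that exceeded all 8 brains, and 189 that lay at least 8-fold above the highest of the 8. The 8 brains differ in depth, kit and age, and 4 of them had only 1154619 to 2696281 reads on genes, where 3 reads are 0.791 to 1.65 CPM. Muscle genes were among those that separated eye from brain, with 7 of 10 at least 8-fold higher in the eye (*ACTA1* had 1 read in brain), and their part in the 1120 was not tested. The collagen genes *COL1A1* and *COL1A2* lay 28.9-fold and 16.1-fold above brain, and *COL11A1* 4.65-fold.

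The genes furthest above brain included crystallins already described, and with values raised to 3 reads *CRYAA*, without reads in brain, was first at 114721-fold or more. In the other direction *GABRQ*, a GABA receptor subunit, was at 805 CPM in brain and 1.41 CPM in the eye, a 571-fold difference (interval 397 to 853). *SST*, the neuropeptide somatostatin, was at 90.5 CPM in brain and 0.194 CPM in the eye (4 reads), and small intestine had more than either. *BCAN*, a proteoglycan of brain matrix, was at 133 against 0.34 CPM. *EN2*, a homeobox gene of midbrain and hindbrain, was at 59.3 CPM in brain with no read in the eye, at least 407-fold lower. *GPR37L1*, a glial receptor, and *LOC118848901* were also without reads in the eye, and *NXPH1*, *CAMKV*, *SOX14* and *LOC118839285* completed the 10 largest differences, with 2, 14, 2 and 1 reads in the eye.

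The comparison brain differed from the other brains in single markers of brain regions, without a common direction among forebrain genes. *TBR1* and *NEUROD6*, genes of cortical neurons, were at 0.498 and 8.3 CPM in the brain of Sandy and at 3.45 and 2.19 CPM in the eye. The 7 other brains had 0.671 to 137 and 12.1 to 545 CPM of them. For *TBR1* the brains of 14, 41 and 46 dpp young were almost as low as that of Sandy, at 0.783, 1.1 and 0.671 CPM. *EN1* and *EN2* were at 30.2 and 59.3 CPM in it, above the 9.82 and 30.1 CPM that the other brains reached. *SIX3*, *EMX2* and *LHX2*, regulators also used in the forebrain, were at 10.3, 8.53 and 24 CPM in it, against 0 to 5.02, 0 to 11.3 and 1.18 to 29.6 CPM in the other brains. The differences between eye and brain therefore refer to this brain library.

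Genes of all neurons were second to brain in the eye without exception. Each of the 9 pan-neuronal genes ranked first in brain and second in the eye, and their sum was 1109 CPM in the eye, 3960 CPM in brain and at least 2.72 CPM in the rest, with a median of 32.8 CPM over the 12 tissues. *TUBB3*, a tubulin of young neurons and the most abundant of the list by reads, was at 578 CPM, 3.11-fold below brain (interval 3.05 to 3.18). *DCX*, of migrating neurons, was 2.63-fold below brain, *SNAP25* 2.97-fold and *SYN1*, a protein of synaptic vesicles, 9.07-fold. The eye thus lay between the brain and the remaining tissues of Sandy for all 9. In the 7 other brains *TUBB3* ran from 105 to 2426 CPM and *DCX* from 2.32 to 50.6 CPM. *SNAP25* ran from 85.1 to 574 CPM there and *SYN1* from 14.4 to 379 CPM. The eye, at 578, 32, 119 and 26.2 CPM, lay within each of these ranges. *MAP2*, *SYT1* and *ELAVL4* of the list were lower in the eye than in all 7 other brains. Of the 4 myelin genes found, *OLIG1* had 26 reads in the eye, 49.7-fold below brain, and *MOG* was 1.91-fold above brain at 5.25 CPM, while the other brains reached 55.4 CPM.

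**Figure D5:**
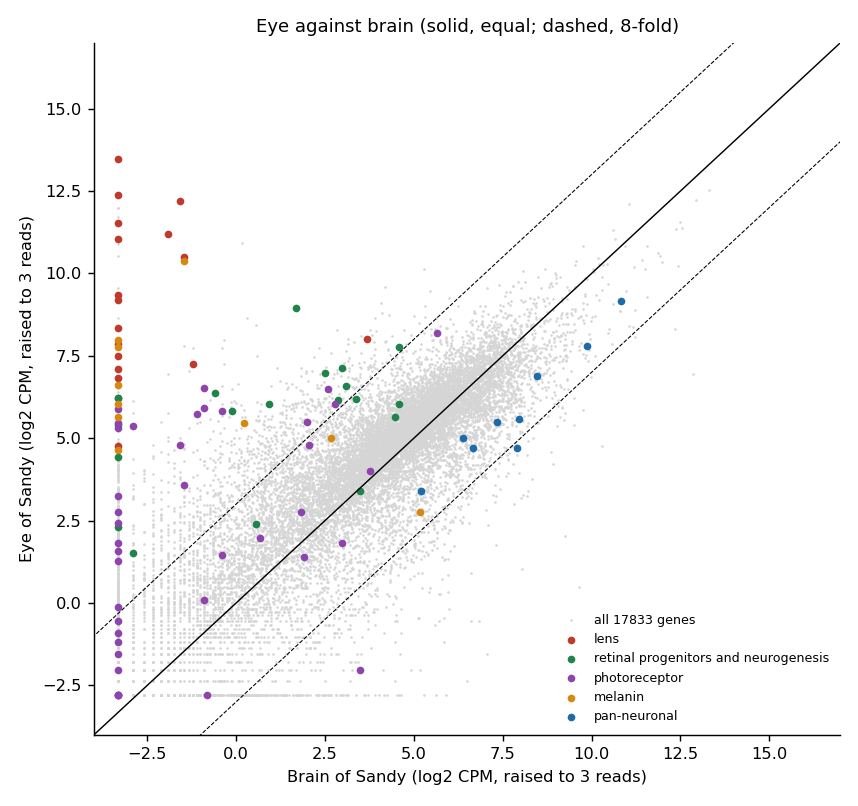
Level of the 17833 genes with at least 30 reads in any tissue in the eye (vertical) and the brain (horizontal) of Sandy, in log2 CPM with values raised to 3 reads of each library, 1 library each. The solid line marks equal levels and the dashed lines 8-fold. Lens (red), melanin (orange, except *SOX10*) and most retinal progenitor and neurogenesis genes (green) lie on the side of the eye, photoreceptor genes (purple) lie on both sides, and the 9 pan-neuronal genes (blue) lie on the side of brain.

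Many of the 138 genes lay outside the lists, and those named in this paragraph were chosen after their values were seen. *RPGRIP1*, *EYS*, *PCARE* and *RD3* are genes in which mutations cause inherited retinal degeneration. *RPGRIP1* was at 54.8 CPM, 9.63-fold above lung, and *RD3* at 70.0 CPM, 15.9-fold above brain. *PCARE* and *EYS* were at 9.38 and 4.18 CPM, 24.5 and 21-fold above muscle and brain. For *EYS* the other brains reached 8.11 CPM, above the eye. *RP1L1*, a photoreceptor relative of *RP1*, was at 43.3 CPM and 161-fold above lung. *NR2E1*, a nuclear receptor of neural progenitors, was at 107 CPM, 26.3-fold above brain, and *DLL3*, a Notch ligand of new neurons, at 66.4 CPM, 21.1-fold above brain. The other brains reached 61.6 CPM of *NR2E1* and 13.4 CPM of *DLL3*, so both margins refer to the brain of Sandy. *IGFBPL1* was at 511 CPM against 0 to 39.7 CPM (median 0.0353) and up to 78.8 CPM in the other brains, and *WFIKKN2*, a secreted protease inhibitor, at 399 CPM against 0.168 to 43.8 CPM (median 2.82). *GJE1*, a connexin of the lens, had 280 reads in the eye and none in the other 12 tissues, at least 108-fold fewer. *ZIC4* and *ZIC5*, zinc finger genes of the early neural plate, were 9.26 and 13.6-fold above brain. The other brains reached 55.2 CPM of *ZIC4*, above the 16.3 CPM of the eye, and 8.21 CPM of *ZIC5*, below its 30.3 CPM.

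Some of the genes set apart lay side by side. By gene order 10 rows of neighbours were found, 9 of 2 genes and the row of 6 on chromosome 4. Crystallin genes formed *CRYBA4* with *CRYBB1*, between 19103219 and 19127703 on chromosome 1, and *CRYBB2* with *CRYBB3*, between 20382435 and 20408622 on the same chromosome. *LRIT3* lay beside *RRH* on chromosome 6, *PRSS16* beside *CRX* on chromosome 2 and *RAX* beside *CPLX4* on chromosome 1.

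At the edge of the 8-fold rule, the genes just inside were *SLC38A11*, *USH1G* and *LOC118857264*, between 8 and 8.03-fold. Just outside lay *CDH20*, *DMRTA2* and *RPE65*, at 7.97, 7.99 and 7.69-fold. Across the table, 129 of the 138 genes were higher in the eye than in every other library of the series. The other 9 were *NEUROG2*, *GADD45G*, *ZIC4*, *EYS*, *SAPCD1*, *SEBOX*, *LOC118848112*, *LOC118850574* and *LOC118857264*. An 8-fold margin over all other libraries held for 42 genes, and over the 91 of them with at least 10000000 reads on genes for 90. Values were again raised to 3 reads of each library, which are 5.91 CPM in the shallowest, a pouch young kidney. A gene less than 8-fold above 5.91 CPM in the eye could not meet the first margin, even without reads elsewhere.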

How the data were processed

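Poly(A) RNA of 13 tissues of 1 pouch young, 1 library each, and of 7 other pouch young brains was sequenced. The authors trimmed reads with Trim Galore 0.6.7, mapped them with HISAT2 2.2.1 to their brushtail possum genome and quantified genes in SeqMonk. The deposited values are log2 and are named RPKM, but they behave as log2 CPM without division by length, with a gene without reads entered as 0.9 read. Reads recovered from them were whole numbers in 100% of values of up to 1000 reads (tolerance 0.01). Whether strand was used in counting is not given in the sources used here. Columns were matched to samples by their labels.

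CPM, read numbers and ranks were computed from these values with Python 3.11.15, numpy 2.4.6, pandas 2.3.3 and scipy 1.17.1, and plots with matplotlib 3.10.9. Genes with at least 30 reads in any of the 13 tissues (17833), or in eye or brain (14843), formed the backgrounds, and each value was raised to 3 reads of its library before a fold was called at 8-fold. Intervals are exact at 95% (Poisson for levels, conditional binomial for ratios, Clopper-Pearson for shares). The computation was tested on simulated data. Genes were named if they were on 28 lists (232 of 270 found), among the 10 highest by the 8-fold margin in the eye or by the eye against brain in either direction, or the 3 on either side of the 8-fold limit, and any others are named as chosen later. The members and lists were chosen with earlier results of these data known. Alternatives were other scalings, floors, read minimums, backgrounds and comparison libraries, and left-out crystallins or brain. 2 libraries whose labels give no clear group entered no comparison, some listed genes are not reported here, and no genome sequence was used.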

Additional observations from a re-analysis of the deposited data

Results flagged for a closer look

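The 138 genes set apart in the eye were looked up in 94 libraries outside the comparisons. For 7 of them at least 1 of those libraries had 30 or more reads and lay at least 8-fold above the highest of the 12 other tissues of Sandy. *CRYBA4*, a beta-crystallin, reached 100.3 CPM from 316 reads in the liver of an 85 dpp pouch young, against 8.71 CPM in the highest other tissue of Sandy and 2984 CPM in the eye. *LOC118849163*, *PCARE* and *HSF4*, of which the last is a lens regulator and the second a photoreceptor gene, had 8.55, 5.51 and 4.63 CPM in an adult tongue (107, 69 and 58 reads), below the 140, 9.38 and 8.55 CPM of the eye. *LOC118848112* was at 7.23 CPM in the liver of a 13 dpp young, above the 4.42 CPM of the eye. *LOC118850574* was at 43.7 CPM in an adult liver, above the 29.4 CPM of the eye, and 4 adult livers met the same limits. *SEBOX* was at 16.2 CPM in an adult liver and met them in 40 libraries, 38 of them adult livers, against 1.46 CPM in the eye. In the 7 brains of other young, 23 genes (the list of brain regions and the genes most in excess in brain) were examined by Dixon's test on the log2 scale with values raised to 3 reads, and 0 exceeded its limit. These brains differ in age and depth, and 3 reads were worth 0.131 to 1.65 CPM in them, so the check could miss a library that stands apart. In CPM, 1 brain stood apart for *LOC118848901*, at 1557 against at most 249 CPM, and for *GPR37L1*, at 96.3 against at most 23.7 CPM.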

How the results depend on the processing

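No result carries a replicate error, since each tissue of Sandy is 1 library, and depth sets what can be seen, with 0.146 CPM as the limit for a gene without reads in the eye. No paired analysis was possible because the 13 tissues compared are 1 library each. The alternative without genes added by product name was not run, since no product names were in the sources used here. The 138 genes set apart in the eye became 42 against all other libraries, 342 without the brain of Sandy and 90 against other libraries with at least 10000000 reads (chosen after seeing the data), and were 99 to 143 under the other settings. For the 42, 3 reads of the shallowest library are worth 5.91 CPM, so a gene less than 8-fold above that level could not count. For genes higher in eye than brain, 1120 became 587 with 1 CPM added to every value, 189 against the highest of 8 brains and 376 against the 4 brains of at least 10000000 reads. For genes higher in brain, 471 became 304 with a common floor of 1 CPM, 210 with 1 CPM added, 300 against the median of the 7 other brains, 49 against the 8 brains and 105 against the 4 deep ones. The settings with 8 and with 4 brains were chosen after seeing the data. The share of genes higher in the eye among those called was 70.4%, and it was 62.5% with scaling to the 75th percentile and 79.9% against the median of the 7 brains. The crystallin share of 3.76% was 3.13% of the library total and 5.38% with the 6 genes of chromosome 4 (added after seeing the data). The rank correlation with brain was 0.916 over all genes, with brain still first. With scaling to the 75th percentile the list medians of opsins (-0.46) and pigment epithelium (-0.16) fell below 0. Against all libraries the difference was -0.74 for *PDE6H*, -1.49 for *NEUROG2*, -1.88 for *BEST1*, -0.68 for *LOC118857264* and -0.14 for *GNAT2* on the log2 scale, with values raised to 3 reads of each library. For *PDE6H*, *BEST1*, *LOC118857264* and *GNAT2* that value is set by the 3 reads of the shallowest library, 5.91 CPM, and no library exceeded the eye for *PDE6H*, *BEST1* or *GNAT2*. For *NEUROG2* it is the 8.03 CPM of a brain. *LHX9* was 0.039 above the median of the 7 brains, and the cause was not tested. With a common floor of 1 CPM the genes set apart fell from 3 to 1 in the phototransduction list, from 3 to 1 in the pigment epithelium list and from 7 to 6 in the neurogenesis list.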

Other observations

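Several gene groups of the eye were examined after the values had been seen, so their counts are descriptions. Ribbon synapses are the continuously releasing synapses of photoreceptors and bipolar cells. Of 6 such genes found, 5 were highest in the eye and 3 were set apart. The complexins *CPLX3* and *CPLX4* were at 10.6 and 9.43 CPM against at most 0.0996 and 0.0335 CPM elsewhere. *CACNA2D4*, a calcium channel subunit, was 153-fold above lung at 23.5 CPM, but the 7 other brains reached 15.4 CPM. *CTBP2*, which gives rise to a ribbon protein, was 2.39-fold above kidney. *BSN*, an anchor of the active zone used by most neurons, was second to brain.

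Genes that pattern the axes of the retina were mostly not highest in the eye, and bulk RNA does not show where in the retina they are used. *TBX2* and *TBX5*, of the dorsal retina, were at 224 and 42.1 CPM, with 192 CPM in lung and 68.1 CPM in heart. *VAX2*, of the ventral retina, was at 1.22 CPM from 25 reads, with up to 3.43 CPM in the 7 other brains, and *VAX1* had no reads. *FOXD1*, of the temporal retina, was at 25 CPM, 4.46-fold above small intestine. *EFNB2*, a dorsal ephrin, was at 510.4 CPM, 3.62-fold above lung, with up to 431 CPM in the other brains. Of 13 such genes 3 were highest in the eye, beside 12.8% of all genes, and the median excess was -0.46. Of 5 genes of retinoic acid metabolism found, 0 were set apart, and *ALDH1A3*, an enzyme of its synthesis, had 61 reads.

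*HOX* genes, which are used in the trunk and hindbrain, were almost absent. Of 39 found, 38 had no read in the eye, against 27 in brain and 4 to 28 in the other 12 tissues, and the eye sum was 0.0486 CPM against 2.71 to 487 CPM. Such low values were not limited to the eye, since of the 7 brains of other young 2 had no read on any of the 39 and 2 had reads on 1 each. In the 2 libraries without a clear group, 2 genes set apart in the eye had at least 30 reads and lay at least 8-fold above the highest other tissue of Sandy. *LOC118858377* was at 12.7 CPM in one (303 reads) and *MEI4* at 10.9 CPM in the other (89 reads), against 4029 and 14.5 CPM in the eye.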
